A study of Homo sapiens with 9 samples.

Results

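Respiratory complex I is built from core subunits that carry electrons or pump protons, accessory subunits that hold them together, and assembly factors that leave before the enzyme is finished. The genes described here are the 47 rows of the count table whose symbol starts with NDUF and holds no hyphen, of 19907 symbols in all. By their known place in the enzyme, 37 of them are subunits (10 in the N module, 5 in the Q module, 10 in the proximal and 12 in the distal membrane arm), 8 are assembly factors with NDUFAF symbols, and 2 (NDUFA4 and NDUFA4L2) carry the family name but are not complex I subunits. The 1 NDUF symbol with a hyphen, a readthrough of NDUFC2 into its neighbour, held 4 reads in all and was left out. The label of the set holds for 45 of the 47 genes, since NDUFA4 is now placed in complex IV and NDUFA4L2 is its paralog.

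The study measured RNA in HUES8 cells, a widely used human embryonic stem line, driven towards definitive endoderm, the layer that forms gut, liver and pancreas. Cells of every group were wild type and received activin A (100 ng/mL) and Wnt-3a (50 ng/mL) in 0.2% albumin without fatty acids for 2 days, and then medium from which Wnt-3a had been removed. DE cells received no inhibitor, C75 cells a blocker of fatty acid synthase, and ETO cells a blocker of fatty acid oxidation, with 3 libraries in each of the 3 groups. The labels give no dose, start or length of the inhibitor treatments, nor the day of harvest. All 9 libraries come from 1 line, and nothing states whether the 3 of a group are separate cultures. The p-values below therefore speak only of scatter among libraries, and that scatter may be purely technical.

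Library totals ran from 17379711 to 21510997 counts, and 46 of the 47 genes were among the 14177 with enough reads to be tested. Markers of the intended cell type and of its source moved with the groups. All 7 definitive endoderm markers were higher in C75 than in DE and lower in ETO, and their summed level was 9777 to 10180 CPM (counts scaled to the library total) in DE, 15331 to 15692 in C75 and 5206 to 5332 in ETO. All 3 pluripotency markers were lower in C75 and higher in ETO, with sums of 347 to 394 CPM in DE, 82.3 to 87.5 in C75 and 1312 to 1368 in ETO. Of the 4 mesoderm markers 2 were lower in C75 and 3 were higher in ETO (sums of 122 to 129, 57.7 to 61.1 and 346 to 361 CPM in DE, C75 and ETO), and the 2 tested ectoderm markers were higher in C75 and lower in ETO (64.5 to 73.6, 85.8 to 94.9 and 15.7 to 17.1 CPM). Most of the endoderm sum was CER1, with a mean of 7034 of 9936 CPM in DE. Most of the pluripotency sum was POU5F1 (295 of 373 CPM in DE) and most of the mesoderm sum KDR (121 of 126 CPM in DE). SOX1, an ectoderm marker, had no count in C75 and at most 0.352 CPM elsewhere. MESP1, a mesoderm marker, was at most 1.04 CPM in any library. In bulk RNA, fewer cells of a type and less RNA per cell cannot be told apart, and the part of these marker differences in the results below was not tested.

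Complex I takes electrons from NADH and passes them to ubiquinone while it pumps protons out of the mitochondrial matrix. The N module at the tip of the matrix arm binds NADH, the Q module below it hands electrons to ubiquinone, and the membrane arm, proximal and distal to that junction, holds the proton pumps. The pumps are the ND proteins, encoded by mitochondrial DNA, so a working enzyme needs transcripts from both genomes. Pluripotent stem cells draw much of their energy from glycolysis, and respiration generally gains in weight as they differentiate.

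Promoter sequence is shown first because NRF1 and YY1 are factors long known to bind promoters of nuclear respiratory genes. RefSeq windows of 300 bases (250 before and 50 after the annotated start, GRCh38.p14) matched 39 of the 47 genes by symbol. NDUFS5, NDUFB5, NDUFA4, NDUFC2, NDUFB9, NDUFAF6 and NDUFA4L2 were among the 8 with no entry. The letters GCGCATGCG, searched on both strands for NRF1, were in 5 of the 39 windows (12.8%), against 3.47% of 11150 tested genes with a window and 2.1% of all 27305 windows. The 5 matches follow with 8 bases on each side, matched letters in capitals, written 5′ to 3′ on the gene's own strand. The match in NDUFS7 lies on the opposite strand and reads as the reverse complement.
NDUFA8 (chr9:122159767-122159791, minus strand): tgccggatGCGCATGCGcaggcgcc
NDUFAF5 (chr20:13785016-13785040, plus strand): ccgcgctgGCGCATGCGcacaaaaa
NDUFB4 (chr3:120596169-120596193, plus strand): agcacttcGCGCATGCGcatatcac
NDUFS6 (chr5:1801353-1801377, plus strand): gaagccgtGCGCATGCGttagcgct
NDUFS7 (chr19:1383825-1383849, plus strand): ccggtttcCGCATGCGCtccgagcc

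The letters AAGATGGC, searched on both strands for YY1, were in 6 of the 39 windows (15.4%), against 4.99% of tested genes with a window and 3.03% of all windows. In all 6 the match was on the sense strand within the 50 bases after the start, where 325 of the 556 tested genes with a match (58.5%) also had it. These letters hold ATG, the start codon, and whether a match here is a binding site or coding sequence was not tested. The 6 matches are given in the same way.
NDUFA3 (chr19:54102868-54102891, plus strand): cggagacaAAGATGGCtgcgagta
NDUFA6 (chr22:42090732-42090755, minus strand): gctttggcAAGATGGCggggagcg
NDUFA7 (chr19:8321346-8321369, minus strand): gcggacggAAGATGGCgtccgcca
NDUFA9 (chr12:4649116-4649139, plus strand): tgtgggaaAAGATGGCggctgccg
NDUFS4 (chr5:53560652-53560675, plus strand): cctgcagcAAGATGGCggcggtgt
NDUFS7 (chr19:1383916-1383939, plus strand): ccgaggccAAGATGGCggtgctgt

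The ETS letters CCGGAAG, the core bound by GABPA, were in 6 of the 39 windows (15.4%), below the 18.0% of tested genes and above the 10.7% of all windows. In all, 16 of the 39 windows held at least 1 of the 3 motifs and 23 held none. No match of 1 motif overlapped a match of another. In NDUFA8, NDUFAF5 and NDUFB4 the NRF1 letters also match on the opposite strand, shifted by 1 base, and both are marked in the longer NDUFB4 sequence. The 250 bases before the start are printed for NDUFB4, a membrane arm subunit with an NRF1 match whose transcript was lower in both inhibitor groups, and for NDUFAF2, an assembly factor with no match to any of the 3 motifs whose transcript moved in opposite directions. Capitals again mark the match.
NDUFB4 (chr3:120596086-120596335, plus strand): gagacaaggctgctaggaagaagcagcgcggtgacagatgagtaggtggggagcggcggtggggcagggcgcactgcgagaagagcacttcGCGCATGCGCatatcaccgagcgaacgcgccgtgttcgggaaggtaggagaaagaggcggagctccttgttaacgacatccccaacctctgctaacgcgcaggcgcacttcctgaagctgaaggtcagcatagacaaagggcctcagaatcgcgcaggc
NDUFAF2 (chr5:60944955-60945204, plus strand): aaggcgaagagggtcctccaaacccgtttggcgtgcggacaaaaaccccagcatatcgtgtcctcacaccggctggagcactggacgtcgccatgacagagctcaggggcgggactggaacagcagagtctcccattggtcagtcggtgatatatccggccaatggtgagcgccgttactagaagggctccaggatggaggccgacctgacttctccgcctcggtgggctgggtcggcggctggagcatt

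Each comparison used edgeR's quasi-likelihood test on the counts of all 9 libraries, and a gene was called at a Benjamini-Hochberg adjusted p below 0.05 over all 14177 genes. Levels are CPM scaled by TMM factors, with values in library order 1, 2 and 3. In C75 against DE, 13 of 46 NDUF genes were called higher and 10 lower, where 31.2% of all genes tested were called higher and 31.9% lower (63.1% either way). The median log2 fold change of the 46 was 0.06, beside -0.00 over all genes. In ETO against DE, 8 were called higher and 22 lower, where 34.7% of all genes were called higher and 35.3% lower (69.9% either way), and the median of the 46 was -0.15, beside -0.00 over all genes. In the direct comparison of C75 with ETO, 21 were called higher in C75 and 13 lower, where 39.9% and 39.2% of all genes were (79.2% either way), with a median of 0.16 beside 0.01 over all genes. The 2 comparisons with DE share their control libraries.

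Set against those backgrounds, the share of NDUF genes called lower in ETO (47.8%) was above the 35.3% of all genes, and the share called higher (17.4%) was below the 34.7%. The 37 subunits held 21 of the 22 falls in ETO and 4 of the 8 rises, while the 8 assembly factors held 1 fall and 4 rises. In C75 the subunits were called in both directions, 11 higher and 9 lower. The shares of all genes given above for each comparison are the background for every count by role or list below. Changes were small: a called difference of at least 0.5 on the log2 scale was reached by 1 rise and 4 falls in C75, where 9.56% of all genes had such a rise and 14.4% such a fall. In ETO it was reached by 1 rise and 3 falls (18.2% and 14.4% of all genes), and between C75 and ETO by 7 higher and 2 lower genes (22.1% and 25.5% of all genes).

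**Figure D1:**
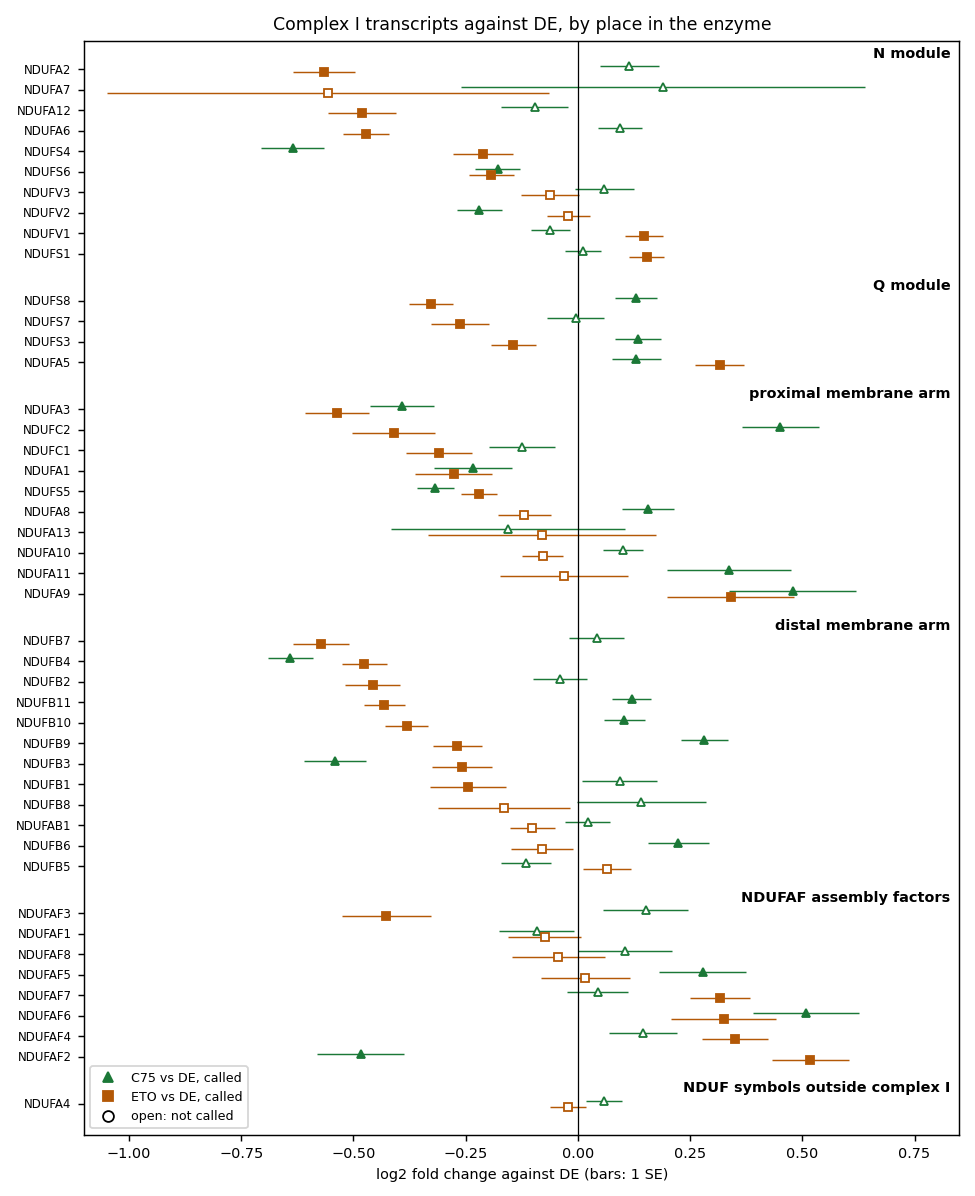
The x axis gives the log2 fold change against DE for C75 (triangles) and ETO (squares), with bars of 1 standard error; 45 of the 46 tested genes are ordered by place in the enzyme and filled symbols are called. In the distal membrane arm 8 of 12 ETO symbols are filled and left of 0, while 4 of the 8 assembly factors have filled ETO symbols right of 0.

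The 46 tested genes fell into 9 patterns over the 2 comparisons with DE. No share of all genes is at hand for each pattern, so the counts by pattern describe these genes only. Lower in both were 7 genes (NDUFA1, NDUFA3, NDUFB3, NDUFB4, NDUFS4, NDUFS5 and NDUFS6), and higher in both were 3 (NDUFA5, NDUFA9 and NDUFAF6). Higher in C75 and lower in ETO were 6 genes, NDUFB9, NDUFB10, NDUFB11, NDUFC2, NDUFS3 and NDUFS8. NDUFAF2 was lower in C75 and higher in ETO. Both calls held in every alternative setting for NDUFA3, NDUFB3, NDUFB4 and NDUFS5 (lower in both), for NDUFB9 and NDUFC2 (higher in C75, lower in ETO) and for NDUFAF2. Of the others with opposite directions, the C75 call was lost in 13 of the 18 settings for NDUFB10, 5 for NDUFB11, 8 for NDUFS3 and 7 for NDUFS8, and the ETO call in 4 for NDUFS3. Of the rest, 9 were lower in ETO and not called in C75, 4 higher in ETO and not called in C75, 4 higher in C75 and not called in ETO, 2 lower in C75 and not called in ETO, and 10 were not called in either. The libraries of C75 and DE did not overlap for 18 of 46 genes (65.8% of all genes tested), those of ETO and DE for 30 (71.7% of all genes), and those of C75 and ETO for 35 (80.0% of all genes).

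In summed CPM, the transcripts of the distal arm were lowest in ETO. The 3 ETO libraries reached 78.7, 80.9 and 82.4% of the DE mean, the C75 libraries 95.1 to 99.1% and the DE libraries themselves 93.7 to 106.5%. The proximal arm gave 85.4 to 87.4% in ETO and 90.1 to 93.3% in C75, against 94.8 to 108.4% in DE. The N module (92.3 to 94.3% in ETO, 93.9 to 96.4% in C75) and the Q module (92.2 to 95.1% and 91.4 to 94.5%) lay just below the lowest DE library of each, at 95.7% and 96.5%, or, for 1 C75 library of the N module, between the DE libraries. The assembly factors were at 110.0 to 114.1% in ETO, above all DE libraries (96.2 to 102.1%), and at 100.4 to 109.7% in C75, which overlapped DE. Sums of TPM, which weigh each gene by its length and are not scaled by TMM, gave lower values in C75. The distal arm summed to 1691 ± 110 TPM (SD, n = 3) in DE, 1546 ± 26 in C75 and 1326 ± 26 in ETO, but the proximal arm was lowest in C75, at 1531 ± 66 beside 1656 ± 21.6 in ETO and 1914 ± 142 in DE. Most of that proximal sum was a single gene, NDUFS5, with a mean of 1346 TPM in DE, 1013 in C75 and 1170 in ETO. The order of the groups in this sum is therefore mainly that of NDUFS5 and not of the arm as a whole. On this scale the C75 and ETO libraries of the N module (752 to 783 and 741 to 765 TPM) and of the Q module (202 to 205 and 221 to 229) all lay below the lowest DE libraries, at 834 and 239 TPM. The assembly factors were higher in ETO on both scales (256 ± 7.0 TPM beside 224 ± 8.4 in DE) but had a lower mean than DE in C75 in TPM (207 ± 12.7), with overlapping libraries, so the direction in C75 depends on the scale. The second DE library had the highest sum over all 47 genes, 2293 CPM against 2071 and 2138 in the other DE libraries.

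**Figure D2:**
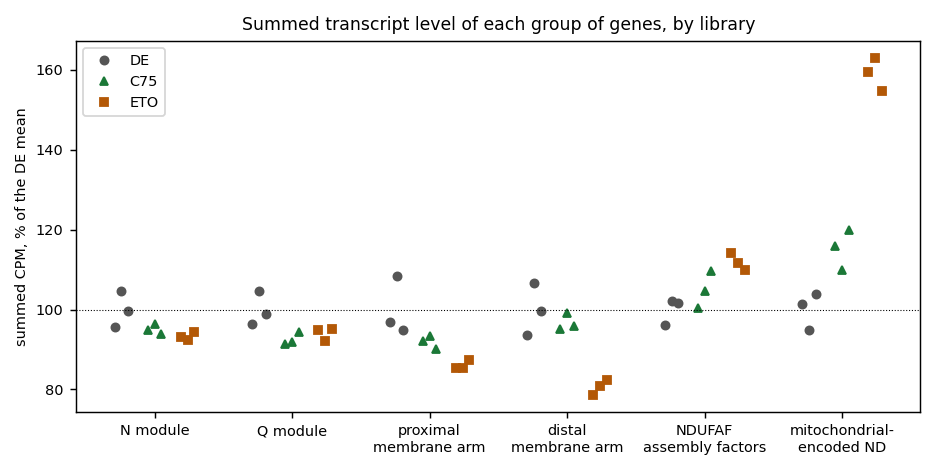
Each point is 1 library's summed CPM over a group of genes, in percent of the DE mean, with DE as circles, C75 as triangles and ETO as squares. The ETO libraries lie below all DE and C75 libraries for the distal arm (78.7 to 82.4%) and above all of them for the assembly factors (110.0 to 114.1%) and for the transcripts encoded by mitochondrial DNA (154.6 to 163.1%).

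Levels of different genes can be compared only per length, in TPM (counts divided by exon length and scaled to the library). NDUFS5 had the highest TPM of the 47 in every group, 1346 ± 90.5 (SD, n = 3) in DE, 1013 ± 36.9 in C75 and 1170 ± 20.0 in ETO. NDUFB7 (378 ± 44.8 TPM in DE) and NDUFB10 (293 ± 14.4) were next in all groups. NDUFB4 had rank 4 in DE at 260 ± 16.4 TPM and rank 10 in C75 at 156 ± 13.0, where NDUFB11 (216 ± 2.5) and NDUFA8 (189 ± 7.5) exceeded it. The catalytic core ran lower, from NDUFV2 at 104 ± 7.4 TPM to NDUFS7 at 20.7 ± 1.7 in DE. This order depends on the length used, which merges all annotated exons of a gene, whether or not they were transcribed here. That length is 548 bases for NDUFS5 but 7533 for NDUFS7, 10391 for NDUFA9 and 12268 for NDUFS1. NDUFS1 had a mean of 104 CPM in DE and yet rank 32 in TPM. Ranks by the length of the transcripts present were not tested. The bottom of the order was NDUFA11 (4.7 TPM in DE), NDUFAF6 (4.1), NDUFA13 (2.6), NDUFA9 (1.9), NDUFA7 (1.3) and NDUFA4L2 (0.5). The DE libraries of NDUFA11 and NDUFAF6 overlapped, as did those of NDUFA13 and NDUFA9, while NDUFAF6 lay above NDUFA13 in every DE library. NDUFA7, NDUFA13, NDUFA9 and NDUFA11 share 33.5, 21.0, 10.6 and 9.65% of their exon bases with other genes of the table, and 20 of the 47 genes share some. Among the others are NDUFB8 (48.5%), NDUFB11 (44.9%), NDUFA1 (44.5%), NDUFB2 (29.3%), NDUFS3 (22.4%), NDUFAF3 (21.7%) and NDUFB9 (21.0%). Smaller shares were found for NDUFB3 (19.8%), NDUFC1 (18.5%), NDUFC2 (18.1%), NDUFA2 (13%), NDUFAF7 (9.53%) and NDUFA3 (6.34%). With genes outside the table, NDUFS7 shares 49.1% and NDUFV2 28.4%. How reads in shared exons were counted, and whether strand was used, is not given in the sources used here. Levels of all these genes, and the changes given for them below, are uncertain to that extent.

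Gene positions below are those of GENCODE release 29 on GRCh38, and 6 of the 47 genes lie on chromosome 19. The tested members had a median exon length of 2454.5 bases and a median GC content of 48.4%, beside 5119 bases and 49.5% over all genes tested.

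The N module begins with NDUFV1, which binds NADH, NDUFV2 and NDUFS1, which pass electrons on through iron-sulphur clusters. None of the 10 genes was called higher in C75 and 3 were called lower; 2 were called higher in ETO and 5 lower. NDUFS4, an accessory subunit that fixes the N module to the rest of the enzyme (chr5:53560633-53683340, plus strand), fell furthest in C75. Its level was 29.4, 33.4 and 32.2 CPM in DE, 20.6, 21.1 and 19.4 in C75 and 26.6, 26.5 and 28.9 in ETO. All C75 libraries lay below all ETO libraries, which lay below all DE libraries. The fall in C75 was -0.64 (SE 0.070, adjusted p = 1.3e-09) and that in ETO -0.21 (SE 0.066, adjusted p = 0.0053), and C75 was also below ETO (-0.42, adjusted p = 2.1e-06). Without the second DE library the ETO difference was -0.16 and was not called (adjusted p = 0.052).

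NDUFA2 and NDUFA6 fell in ETO and were not called in C75. NDUFA2, a small subunit with a thioredoxin-like fold (chr5:140638740-140647785, minus strand), had 34.9, 41.8 and 37.6 CPM in DE, 38.4, 44.7 and 40.3 in C75 and 25.4, 26.8 and 24.9 in ETO. Every ETO library was below every other library, and the ETO difference was -0.56 (SE 0.069, adjusted p = 6.6e-09, 1.48-fold lower). NDUFA6, which carries the LYR motif by which the mitochondrial acyl carrier protein is bound (chr22:42085525-42090955, minus strand), gave 57.5, 66.2 and 62.3 CPM in DE, 66.7, 66.1 and 65.1 in C75 and 44.3, 44.8 and 44.7 in ETO. The ETO difference was -0.47 (SE 0.051, adjusted p = 4.4e-10), and the direct difference of C75 over ETO was 0.56 (adjusted p = 3.3e-12). The differences from DE in C75 were 0.11 for NDUFA2 (adjusted p = 0.13) and 0.09 for NDUFA6 (adjusted p = 0.099), and both were called higher without DE library 2.

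The other N-module genes moved less. NDUFA12, whose place on the unfinished enzyme is held by NDUFAF2, was at 38.7 ± 3.77 CPM in DE and 27.6 ± 3.78 in ETO (-0.48, adjusted p = 9.7e-07) and at 36.1 ± 1.43 in C75 (not called). NDUFS6, a zinc-binding subunit, fell in C75 (-0.18, adjusted p = 0.0026) and ETO (-0.19, adjusted p = 0.00095). The C75 call was lost without DE library 2 (-0.12) and the ETO call with the correction for GC content and gene length (-0.05), under which NDUFS6 was 0.14 lower in C75 than in ETO. NDUFV2 fell in C75 alone (-0.22, adjusted p = 0.00028; ETO -0.02, adjusted p = 0.71), and the 2 groups differed directly (-0.20, adjusted p = 0.00053). NDUFV1 and NDUFS1 rose in ETO (both 0.15, adjusted p = 0.0022 and 0.0009) and were not called in C75, but for NDUFS1 a correction for GC content and gene length turned the ETO difference to -0.05. Under that correction the N module had 2 genes higher and 4 lower in C75, with calls gained for NDUFV1, NDUFS1 and NDUFA6. NDUFV3 was not called in any comparison, and NDUFA7, with 27, 29 and 19 counts in all of DE, C75 and ETO, was not called either, with standard errors of 0.45 in C75 and 0.49 in ETO.

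The Q module carries electrons to the ubiquinone site, and NDUFS3, NDUFS7 and NDUFS8 are among its core subunits. NDUFS8, which carries a pair of iron-sulphur clusters (chr11:68030617-68036644, plus strand), was at 64.8, 69.2 and 62.6 CPM in DE, 70.9, 68.7 and 75.2 in C75 and 51.9, 52.1 and 52.5 in ETO. ETO libraries were below all others, and C75 and DE overlapped. NDUFS8 fell in ETO (-0.33, SE 0.049, adjusted p = 3.6e-07), and its call as higher in C75 (0.13, adjusted p = 0.018) was lost in 7 alternatives, among them leaving out DE library 1 or 3 or C75 library 1 or 3 (0.08 to 0.12). NDUFS3 was called higher in C75 (0.13, adjusted p = 0.021) and lower in ETO (-0.14, adjusted p = 0.013). The C75 call was lost in 8 alternatives, among them those without DE library 1 or 3 or C75 library 2 or 3 (0.11 to 0.12), and the ETO call in 4, among them those without DE library 2 (-0.11) or ETO library 1 (-0.12). NDUFS7 fell in ETO (-0.26, adjusted p = 0.00056), and NDUFA5, a subunit of the module's base, rose in ETO (0.32, adjusted p = 4.1e-06) and was called 0.13 higher in C75 (adjusted p = 0.04), with overlapping libraries. That C75 call was lost in 8 alternatives, among them those without DE library 1 or any 1 C75 library (0.05 to 0.14). Of the 5 genes of the Q module 3 were thus called higher in C75, and 1 was higher and 3 were lower in ETO. The 3 rises in C75 became 0 under upper-quartile scaling, without DE library 1 and without C75 library 3, and 1 without DE library 3, C75 library 1 or C75 library 2.

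**Figure D3:**
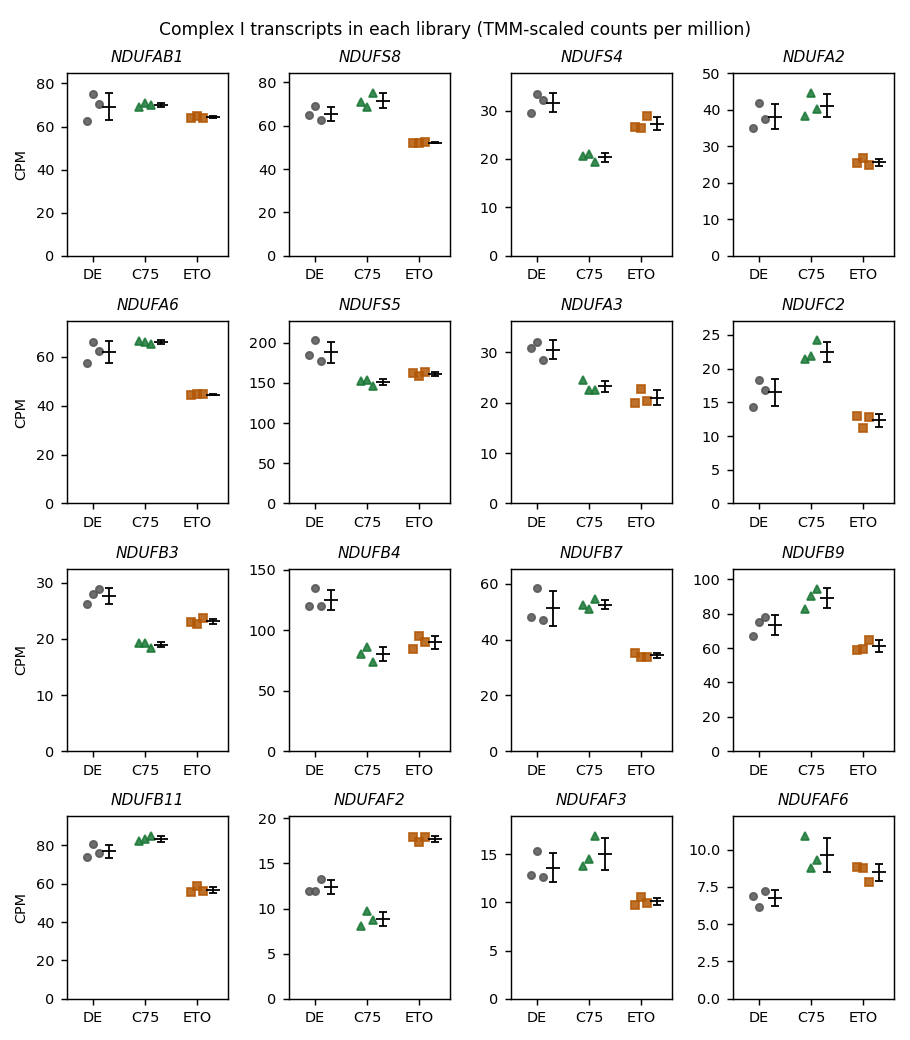
Each panel shows 1 gene's TMM-scaled CPM in the 9 libraries (circles DE, triangles C75, squares ETO), with the mean and 1 SD of each group beside the points and the y axis starting at 0. NDUFS4, NDUFB3 and NDUFB4 are lower than DE in both inhibitor groups, whereas NDUFA2, NDUFA6, NDUFB7 and NDUFB11 are low in ETO alone, and NDUFAF2 lies above DE in ETO and below it in C75.

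In the proximal membrane arm, 4 of 10 genes were called higher in C75 and 3 lower, and 1 higher and 5 lower in ETO. NDUFS5, a subunit on the intermembrane-space face (chr1:39026318-39034636, plus strand), was at 184, 203 and 177 CPM in DE, 152, 154 and 146 in C75 and 163, 159 and 163 in ETO. All libraries of both inhibitor groups were below all DE libraries. The falls were -0.32 in C75 (SE 0.040, adjusted p = 2.5e-08) and -0.22 in ETO (SE 0.040, adjusted p = 1e-05). NDUFS5 was called 0.10 lower in C75 than in ETO (adjusted p = 0.028), but this call was lost without C75 library 3, ETO library 1 or ETO library 3, and the difference reversed to 0.11 with the correction for GC content and gene length.

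NDUFA3, a small subunit with a single membrane helix (chr19:54102728-54109257, plus strand), fell in both groups. Its level was 30.9, 32.1 and 28.4 CPM in DE, 24.5, 22.6 and 22.6 in C75 and 19.9, 22.8 and 20.3 in ETO. No DE library overlapped either inhibitor group, while C75 and ETO overlapped. The differences from DE were -0.39 (SE 0.071, adjusted p = 1.4e-05) and -0.54 (SE 0.071, adjusted p = 3.8e-08).

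NDUFC2, a subunit beside the ND2 pump (chr11:78068304-78080219, minus strand), separated the inhibitors most among the subunits called. It was at 14.3, 18.3 and 16.8 CPM in DE, 21.4, 21.8 and 24.2 in C75 and 13.0, 11.2 and 12.8 in ETO. The 3 groups did not overlap, with C75 highest and ETO lowest. It rose by 0.45 in C75 (SE 0.086, adjusted p = 3.1e-05) and fell by 0.41 in ETO (SE 0.093, adjusted p = 0.00021), and C75 exceeded ETO 1.82-fold (0.86, adjusted p = 1.1e-10).

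Of the other proximal genes, NDUFC1 fell in ETO (-0.31, adjusted p = 0.0004). NDUFA1 was called lower in C75 (-0.23, adjusted p = 0.019), with overlapping libraries, and in ETO (-0.28, adjusted p = 0.005). Without DE library 2 these differences were -0.11 and -0.13, and without C75 library 3 that in C75 was -0.13, none of them called, and with DESeq2 neither was called. NDUFA8 was called higher in C75 (0.16, adjusted p = 0.02), a call lost under upper-quartile scaling and without DE library 1 or 3 or C75 library 2 or 3 (0.10 to 0.15). NDUFA9, which binds NADPH where the arms meet, rose in C75 (0.48, adjusted p = 0.0039) and by 0.34 in ETO (adjusted p = 0.033), at levels of only 4.98 ± 0.54 CPM in DE, 6.92 ± 0.68 in C75 and 6.26 ± 1.0 in ETO. The ETO call for NDUFA9 was lost without DE library 1 (0.30), DE library 3 (0.28) or ETO library 1 (0.20). NDUFA11 was called higher in C75 (0.34, adjusted p = 0.035), with overlapping libraries and in 10 of the 18 alternatives only; without DE library 1 or 3 or C75 library 2 or 3 the difference was 0.19 to 0.36 and was not called. In the same comparison NDUFA10 (0.10, adjusted p = 0.051) and NDUFA13 (-0.16, adjusted p = 0.62) were not called.

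In the distal membrane arm 8 of 12 genes were called lower in ETO and 0 higher, with a median of -0.26. Over the 18 alternative settings 7 to 9 were lower and none higher. In C75 4 were higher and 2 lower. These subunits surround ND4 and ND5, the outermost pumps.

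NDUFB4 (chr3:120596309-120602500, plus strand) and NDUFB3 (chr2:201071433-201085750, plus strand), small subunits with a single membrane helix, fell in both groups. NDUFB4 was at 120, 135 and 120 CPM in DE, 80.5, 86.0 and 74.1 in C75 and 84.2, 95.4 and 90.3 in ETO. Both inhibitor groups lay below DE with no overlap, and they overlapped each other. The differences from DE were -0.64 (SE 0.051, adjusted p = 5.9e-13) and -0.48 (SE 0.050, adjusted p = 2.5e-10). NDUFB3 gave 26.2, 27.9 and 28.9 CPM in DE, 19.3, 19.3 and 18.5 in C75 and 23.0, 22.7 and 23.7 in ETO. Its 3 groups did not overlap, with differences from DE of -0.54 (SE 0.070, adjusted p = 3.6e-08) and -0.26 (SE 0.067, adjusted p = 0.00097).

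NDUFB7, a subunit of the intermembrane-space face (chr19:14566078-14572062, minus strand), was low in ETO. It stood at 48.1, 58.5 and 47.1 CPM in DE, 52.2, 51.1 and 54.4 in C75 and 35.3, 33.7 and 33.9 in ETO. ETO was below every other library, with a difference of -0.57 from DE (SE 0.063, adjusted p = 7.8e-10), and C75 exceeded ETO by 0.61 (adjusted p = 9.8e-11) without being called against DE (0.04, adjusted p = 0.56).

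NDUFB9 and NDUFB11 were higher in C75 and lower in ETO. NDUFB9, a further LYR protein that binds the acyl carrier protein, was at 67.1, 75 and 78 CPM in DE, 82.7, 90.2 and 94.2 in C75 and 58.6, 59.2 and 64.9 in ETO. The groups did not overlap, and the differences from DE were 0.28 (SE 0.053, adjusted p = 2.1e-05) and -0.27 (SE 0.054, adjusted p = 5e-05). NDUFB11, whose gene on the X chromosome (chrX:47142216-47145504, minus strand) shares 44.9% of its exon bases with RBM10 on the other strand, gave 74.0, 80.5 and 76.1 CPM in DE, 82.0, 83.2 and 85 in C75 and 55.8, 58.7 and 56.2 in ETO. Its fall in ETO was -0.43 (SE 0.045, adjusted p = 2.4e-10), and its rise in C75 of 0.12 (adjusted p = 0.017) was lost in 5 alternatives, those without DE library 1 or 3 or C75 library 2 or 3 among them (0.09 to 0.11).

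NDUFAB1 is the mitochondrial acyl carrier protein, on which mitochondria build their own fatty acids, and it is present in complex I at both LYR subunits. It was at 62.4, 75.1 and 70.3 CPM in DE, 69.2, 70.9 and 70.2 in C75 and 64.2, 65.1 and 63.9 in ETO. DE spanned the range of both other groups. NDUFAB1 was called neither in C75 (0.02, SE 0.051, adjusted p = 0.73) nor in ETO (-0.10, SE 0.051, adjusted p = 0.075). C75 lay 0.12 above ETO (adjusted p = 0.028), a call lost in 9 of the 18 alternatives, and without DE library 1 the ETO difference was -0.18 and was called (adjusted p = 0.0018).

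The rest of the distal arm included NDUFB2 (-0.46, adjusted p = 5.2e-08), NDUFB10 (-0.38, adjusted p = 1e-08) and NDUFB1 (-0.24, adjusted p = 0.011), all lower in ETO. The NDUFB1 call was lost without DE library 2 (-0.17) or ETO library 1 (-0.18), whereas the others held in every alternative. NDUFB6 was called higher in C75 (0.22, adjusted p = 0.0051), with overlapping libraries, a call lost without C75 library 1 (0.18). NDUFB10 was called higher in C75 at the edge of the threshold (0.10, adjusted p = 0.05 after rounding), with overlapping libraries. That call was lost in 13 of the 18 alternatives, leaving out 7 of the 9 libraries in turn among them (0.07 to 0.11). NDUFB5 and NDUFB8 were called in neither comparison with DE.

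Assembly factors guide the modules together and do not remain in the finished enzyme. Of the 8 genes 4 were called higher and 1 lower in ETO, and 2 higher and 1 lower in C75, where the rises became 1 without C75 library 1. NDUFAF2, a paralog of NDUFA12 that occupies its place until the N module docks (chr5:60945129-61153037, plus strand), gave the widest difference between the inhibitors. It was at 11.9, 11.9 and 13.3 CPM in DE, 8.11, 9.68 and 8.73 in C75 and 17.9, 17.3 and 18.0 in ETO. The groups did not overlap, with ETO highest and C75 lowest. NDUFAF2 fell by 0.48 in C75 (SE 0.097, adjusted p = 5.8e-05), rose by 0.52 in ETO (SE 0.086, adjusted p = 2.4e-06) and was 2.00-fold lower in C75 than in ETO (-1.0, SE 0.092, adjusted p = 5.2e-12). Its partner NDUFA12 was -0.10 in C75 and -0.48 in ETO.

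NDUFAF3 and NDUFAF4 bind each other and act early on the Q module. NDUFAF3 (chr3:49020459-49023495, plus strand) was at 12.9, 15.4 and 12.6 CPM in DE, 13.7, 14.5 and 16.9 in C75 and 9.77, 10.5 and 9.97 in ETO. The ETO libraries were below all others. It fell in ETO (-0.43, SE 0.099, adjusted p = 0.0003), a call lost with the correction for GC content and gene length (-0.19, adjusted p = 0.082), whereas NDUFAF4 rose there from 22.0 ± 2.38 to 27.9 ± 0.819 CPM (0.35, SE 0.073, adjusted p = 7.7e-05). Neither was called in C75.

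NDUFAF6, which acts on the membrane part that holds ND1, had 6.88, 6.17 and 7.25 CPM in DE, 10.9, 8.75 and 9.28 in C75 and 8.81, 8.79 and 7.82 in ETO. Both inhibitor groups were above DE with no overlap. It rose by 0.51 in C75 (SE 0.12, adjusted p = 0.00033) and was called 0.32 higher in ETO (SE 0.12, adjusted p = 0.015), the latter not called without DE library 2 (0.28) or without ETO library 1 (0.29). NDUFAF7, a methyltransferase, rose in ETO from 27.3 ± 2.21 to 34.1 ± 2.16 CPM (0.32, SE 0.066, adjusted p = 7.8e-05) and was 28.2 ± 0.42 in C75. NDUFAF5, which hydroxylates NDUFS7, was called higher in C75 (0.28, adjusted p = 0.013), but not without DE library 2 (0.23) or C75 library 1 (0.25), and NDUFAF1 and NDUFAF8 were not called in any comparison.

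NDUFA4 was at 117, 126 and 117 CPM in DE, 126, 129 and 120 in C75 and 116, 116 and 123 in ETO. The groups overlapped and no difference was called (0.06 in C75, SE 0.040, adjusted p = 0.21, and -0.02 in ETO, SE 0.040, adjusted p = 0.64). C75 lay 0.08 above ETO (adjusted p = 0.069). With the correction for GC content and gene length, NDUFA4 was called higher in C75 than in DE. NDUFA4 was called higher in C75 than in ETO with that correction, with no filter on low counts, and without C75 library 3 or ETO library 3. Its paralog NDUFA4L2, known as a gene induced by low oxygen, had few reads, with 4, 9 and 5 reads in DE, 3, 6 and 7 in C75 and 7, 10 and 10 in ETO, and was not tested.

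In the direct comparison C75 exceeded ETO in 8 of 12 distal arm genes and was lower in 3, in 5 of 10 proximal genes with 1 lower, and in 3 of 10 N-module genes with 4 lower. The 8 assembly factors had 2 higher and 3 lower. Over all genes tested, 39.9% were called higher and 39.2% lower in C75 than in ETO. Counts for groups this small were not tested against those shares. Since doses are not given, the comparison is of these groups only and not of matched doses.

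**Figure D4:**
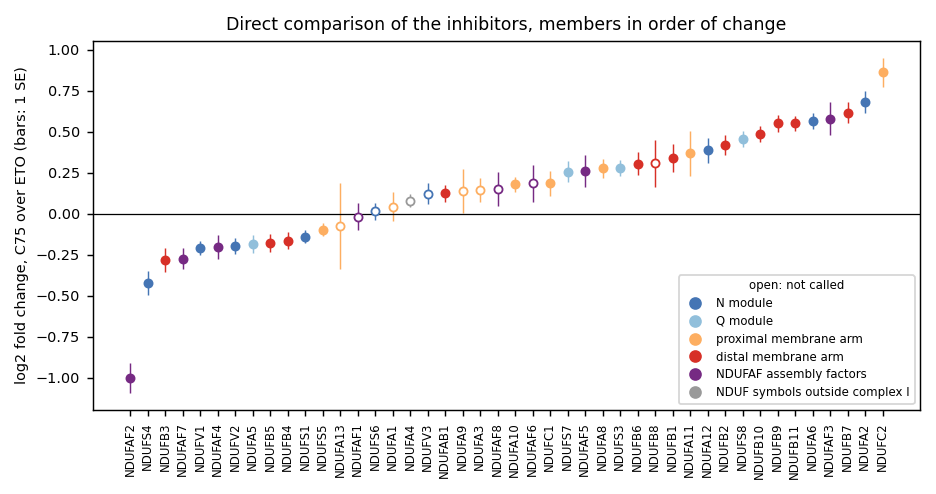
The y axis gives the log2 fold change of C75 over ETO with bars of 1 standard error for 44 genes, in order of change and coloured by place in the enzyme; open symbols were not called. NDUFAF2 (-1.0) and NDUFS4 (-0.42) lie at the low end and NDUFC2 (0.86), NDUFA2 (0.68) and NDUFB7 (0.61) at the high end; NDUFA7 is left out because its few reads give an error several times that of the others.

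The 7 ND transcripts of mitochondrial DNA, which are no members of the NDUF set, rose in ETO in all 7 cases and in C75 in 5. MT-ND4 was at 3667, 3395 and 3795 CPM in DE, 3677, 3462 and 3899 in C75 and 6090, 6170 and 5851 in ETO, a rise of 0.74 in ETO (SE 0.035, adjusted p = 1.8e-19) with C75 overlapping DE (0.02, adjusted p = 0.57). MT-ND6, read from the other strand, gave 406, 394 and 435 CPM in DE, 475, 461 and 485 in C75 and 714, 754 and 722 in ETO. The groups did not overlap, and the rises were 0.20 in C75 (adjusted p = 5.6e-06) and 0.83 in ETO (adjusted p = 3.3e-21). MT-ND1 (0.44 in C75 and 0.54 in ETO) and MT-ND2 (0.45 and 0.51) rose in both groups. For MT-ND1 C75 lay below ETO in the direct test (-0.10, adjusted p = 0.0037), a call lost with the correction for GC content and gene length, and for MT-ND2 the groups overlapped and were not called different (-0.06, adjusted p = 0.14), though C75 was called lower in 6 of the 18 alternatives, among them those without DE library 2 (-0.07), C75 library 3 (-0.12) or ETO library 3 (-0.10). MT-ND4L (0.79) and MT-ND5 (0.78) rose in ETO, with 0.07 (not called) and 0.21 in C75 (C75 lower than ETO by edgeR, adjusted p = 3.3e-18 and 1.9e-17), and MT-ND3 rose by 0.21 and 0.19. Without DE library 1 the MT-ND4L difference in C75 was 0.12 and was called (adjusted p = 0.0065). The MT-ND3 rise in ETO was 0.05 and not called after correction for GC content and gene length. Reads of these genes may be shared with nuclear copies of mitochondrial DNA, and the RNA selection is not given in the sources used here.

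**Figure D5:**
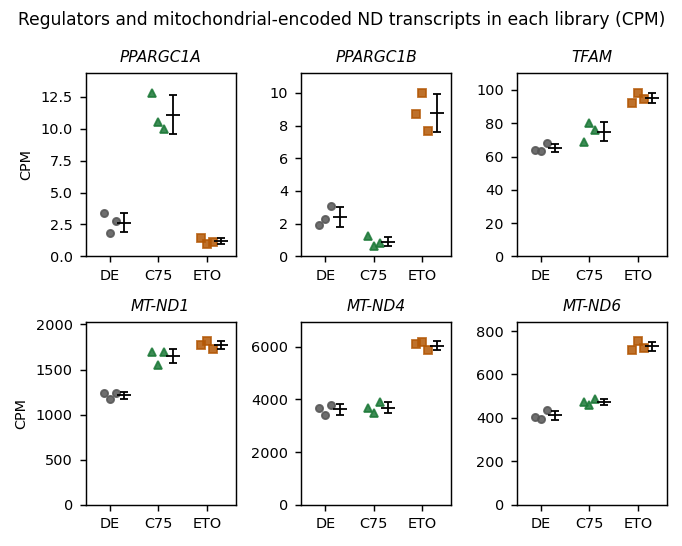
Panels show TMM-scaled CPM in each library for 3 regulators (top) and 3 ND transcripts of mitochondrial DNA (bottom), with the mean and 1 SD of each group and y axes from 0. PPARGC1A is high in C75 alone (10 to 12.8 CPM) and PPARGC1B in ETO alone (7.65 to 10 CPM), while MT-ND4 and MT-ND6 are high in ETO.

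Among 10 regulators of nuclear respiratory genes, 6 were called higher and 2 lower in C75, and 5 higher and 1 lower in ETO. The 2 falls in C75 became 4 without C75 library 2. Of all genes tested, 31.2% were called higher and 31.9% lower in C75, and 34.7% and 35.3% in ETO. PPARGC1A and PPARGC1B are related coactivators of nuclear respiratory genes, and they moved in opposite directions. PPARGC1A was at 3.37, 1.83 and 2.75 CPM in DE, 12.8, 10.5 and 10 in C75 and 1.45, 0.954 and 1.16 in ETO. It rose 4.12-fold in C75 (2.04, SE 0.17, adjusted p = 1e-12) and fell 2.24-fold in ETO (-1.16, SE 0.24, adjusted p = 5.9e-05). PPARGC1B was at 1.9, 2.29 and 3.07 CPM in DE, 1.24, 0.660 and 0.824 in C75 and 8.68, 10 and 7.65 in ETO. It fell 2.65-fold in C75 (-1.4, SE 0.26, adjusted p = 2.2e-05) and rose 3.65-fold in ETO (1.87, SE 0.18, adjusted p = 1.6e-11). For both genes the 3 groups did not overlap. TFAM, which packs and transcribes mitochondrial DNA, rose in both, from 65.1 ± 2.59 CPM in DE to 74.8 ± 5.82 in C75 (0.20, adjusted p = 0.00077) and 94.9 ± 3.06 in ETO (0.54, adjusted p = 4.8e-12).

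NDUF genes with the NRF1 letters were called 2 higher and 2 lower of 5 in C75 and 0 higher and 3 lower in ETO. Those with the YY1 letters were called 1 higher and 2 lower of 6 in C75 and 1 higher and 4 lower in ETO. Those with the ETS letters were called 1 higher and 1 lower of 6 in C75 and 2 higher and 3 lower in ETO. The 23 genes with no motif in their window had 6 higher and 3 lower in C75 and 4 higher and 10 lower in ETO. Over all genes tested, 31.2% were called higher and 31.9% lower in C75, and 34.7% and 35.3% in ETO. Falls in ETO were found with and without these letters, and groups this small were not tested against those shares.

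Assembly factors outside the NDUF name (13 genes) split, with 6 higher and 4 lower in C75 and 4 higher and 3 lower in ETO. The shares over all genes tested were 31.2% higher and 31.9% lower in C75, and 34.7% and 35.3% in ETO. AIFM1, which supports the import of several subunits, rose from 48.8 ± 4.7 to 68.4 ± 2.25 CPM in C75 (0.49, adjusted p = 1.1e-09) and was 48.2 ± 0.26 in ETO. DMAC1, which acts on the distal arm, rose in ETO from 19.2 ± 1.49 to 26.1 ± 1.85 CPM (0.45, adjusted p = 3.9e-06). ACAD9, which works with NDUFAF1 on the ND2 part, rose in C75 (0.28, adjusted p = 0.00027) and fell in ETO (-0.22, adjusted p = 0.0041).

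The mitochondrial fatty acid synthesis pathway, which loads NDUFAB1, and the lipoylation enzymes it feeds counted 9 genes, with 3 higher and 2 lower in C75 and 1 higher and 3 lower in ETO. For all genes tested the shares were 31.2% higher and 31.9% lower in C75, and 34.7% and 35.3% in ETO. MCAT, which hands malonyl groups to the carrier, was at 14.0 ± 0.729 CPM in DE, 18.5 ± 1.19 in C75 (0.41, adjusted p = 0.00014) and 10.4 ± 1.09 in ETO (-0.42, adjusted p = 0.00016). MECR, the last reductase of the cycle, rose in C75 (0.27, adjusted p = 0.0017). LIAS, which makes lipoate from the product, rose in ETO (0.62, adjusted p = 4.9e-07). The 3 falls in ETO became 1 without DE library 3, and the 2 falls in C75 became 1 without C75 library 3.

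Nuclear genes of the other respiratory complexes and ATP synthase gave counts like those of the subunits in ETO. Of 38 such genes 25 were lower and 6 higher in ETO (median -0.21), beside 21 lower and 4 higher of 37 complex I subunits (median -0.22). All genes tested gave 35.3% lower and 34.7% higher in ETO, and 31.9% lower and 31.2% higher in C75. In C75 5 of the 38 were higher and 10 lower (median -0.02). That count of rises ran from 1 to 12 over the alternatives. It was 3 without DE library 1 or C75 library 1 and 2 without C75 library 3. The 6 rises in ETO became 2 without DE library 1. UQCRC1, a complex III core protein, was at 365 ± 11.2 CPM in DE, 231 ± 2.94 in C75 (-0.66, adjusted p = 4.2e-18) and 195 ± 6.43 in ETO (-0.90, adjusted p = 2.2e-22). ATP5MC2, a gene for the rotor ring of ATP synthase, fell in C75 (-0.67, adjusted p = 1.2e-13), and ATP5F1C, of its central stalk, fell in ETO (-0.31, adjusted p = 7.1e-09). The falls in ETO were thus not shown to be particular to complex I.

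Among the calls on NDUF genes, 8 of the 10 falls in C75 and 16 of the 22 falls in ETO were called in every one of the 18 alternative settings, as were 4 of the 13 rises in C75 and 5 of the 8 rises in ETO. The rises in C75 numbered 6 under upper-quartile scaling, 6 without DE library 1, 7 without DE library 3, 8 without C75 library 1 or C75 library 2 and 6 without C75 library 3. Of these, the rises among subunits fell from 11 to 4 without DE library 1 or C75 library 3, to 5 without DE library 3, to 6 without C75 library 2 and to 7 without C75 library 1. The 4 rises in C75 in the proximal arm became 2 without DE library 1, DE library 3 or C75 library 3, and the 4 in the distal arm became 2 without any 1 of these or of C75 libraries 1 and 2. Without DE library 2 the falls in ETO numbered 18.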

How the data were processed

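The authors deposited raw counts per gene symbol for the 9 libraries, with gene length in bases as a further value, per the file headers. HISAT2 2.1.0 and featureCounts 1.6.4 are named in the submitters' processing notes. The annotation used, the strand setting and the handling of multi-mapping reads were not given in the sources used here. All 19907 symbols matched GENCODE release 29, and 19875 had its merged exon length (99.8%).

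From the deposited counts, CPM with TMM factors and TPM from the gene lengths were computed here. Genes were filtered with filterByExpr and tested with edgeR 4.0.16 in R 4.3.3 (glmQLFit and glmQLFTest, group as the only term, 9 libraries in 1 fit, Benjamini-Hochberg adjustment over 14177 genes, which hold 99.962% of counts). The common biological coefficient of variation was 0.0335. Replicate libraries differed by more than sampling noise, with a chi-square per degree of freedom of 1.78 to 3.28. The test was also run on simulated counts, with the same spread for every gene and far fewer changed genes than were called here. That run therefore does not show how the test and its scaling behave on these data. DESeq2 1.42.0 was an alternative.

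The members and gene lists were chosen with earlier results of these data known. Values in every library are given for members called with a log2 change of at least 0.5 in any comparison, for the 2 members of each role with the smallest p, and for NDUFAB1, NDUFA4 and NDUFA4L2. Up to 3 genes of each other list are named by smallest p, and all ND genes of mitochondrial DNA. One member is not reported here, though it stays in the counts and sums. Promoter windows came from RefSeq.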

Additional observations from a re-analysis of the deposited data

How the results depend on the processing

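The 18 alternatives changed the scaling, the tool, the filter on low counts, the libraries in the fit, the replicate block, a correction for GC content and gene length, or left out 1 library. Of 2476 recomputed log2 fold changes of NDUF genes, 2292 kept their side of the threshold without reversing a call, 117 lost a call and 57 gained one. The other 10 changed sign and were called before or after the change. Differences called in neither fit are among the 2292 even where their sign changed, as for NDUFS6 in C75 against ETO under upper-quartile scaling. The rises in C75 numbered 6 under upper-quartile scaling, and the rises in ETO 5 with the correction for GC content and gene length and 5 with that correction and the replicate block. Leaving out each library gave 6 to 17 rises and 8 to 11 falls in C75 (16 to 25 calls), 6 to 8 rises and 18 to 25 falls in ETO (25 to 32 calls), and 19 to 22 higher and 12 to 13 lower for C75 against ETO (32 to 34 calls). All 10 sign changes that involved a call came with the GC content and length correction, and are given without and with the block. C75 against ETO went from -0.10 to 0.11 and 0.11 for NDUFS5 and from -0.14 to 0.13 and 0.13 for NDUFS1. It went from 0.01 to -0.14 and -0.14 for NDUFS6 and from -0.19 to 0.21 and 0.20 for NDUFA5. ETO against DE went from 0.15 to -0.048 and -0.048 for NDUFS1. The cause was not tested.

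The labels state no pairing of libraries by replicate number. Same-numbered libraries of different groups had correlations of -0.027 to 0.05 in their deviations from the group means, beside -0.044 to 0.047 for different numbers. Not every library correlated best with its own number. Correlations this weak show no strong shared effect, but cannot tell whether the libraries were prepared in pairs. With the replicate block alone the counts were 13 higher and 10 lower in C75, 8 and 22 in ETO, and 21 and 13 for C75 against ETO. Depth limits NDUFA7, NDUFA13 and NDUFA4L2, which had at most 13, 44 and 10 reads in any library.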
